A study of Mus musculus with 4 samples.

Results

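The genes described here are the splicing factor and heterogeneous nuclear ribonucleoprotein (hnRNP) genes of mouse liver. They were taken by name, as the gene symbols that begin with Srsf, Snrp, Sf3, Hnrnp, Prpf, Lsm, U2af or Rbm (with a digit after Srsf, Prpf, Lsm and Rbm), which gave 60 of the 7000 genes listed in the deposited RNA-Seq table. By family there were 4 Srsf, 7 Snrp, 8 Sf3 and U2af, 11 Hnrnp, 9 Prpf, 8 Lsm and 13 Rbm genes. The name is a loose guide to function for the Rbm genes, a set of proteins with RNA-binding domains that also act in RNA editing, RNA modification and mRNA stability.

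The RNA came from livers of male wild-type FVB/N mice kept from weaning for 6 weeks on a selenium-deficient torula yeast diet supplemented with 0 ppm selenium (2 mice, numbered 1 and 2) or with 0.1 ppm selenium as sodium selenite (2 mice, numbered 4 and 5). The study sequenced rRNA-depleted RNA to ask how dietary selenium changes hepatic gene expression. Each gene has 1 level in the values used here, the authors' mean over the 4 libraries of both diets, so the diets could not be compared, depth per library is unknown, and no value below carries an error between mice. The order of 2 genes with similar levels is therefore not separated from the spread between animals. The rows of the table stand in the order of the p-values from the authors' diet comparison, and genes beyond its last row were not analysed here. Of 40 genes of these families with a role fixed for description, 28 were listed. Srsf3, Snrpg, Sf3a2, Sf3b1, Sf3b3, Prpf4, Lsm1, Lsm8, Hnrnpk, Rbm3, Rbm25 and Rbm39 were not.

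Introns are removed by the spliceosome, which is built from small nuclear ribonucleoproteins (snRNPs). The U1 snRNP reads the 5′ splice site, U2AF and the U2 snRNP read the 3′ splice site and the branch point, and the U4/U6.U5 tri-snRNP brings in the catalytic RNAs. SR proteins (the Srsf genes) bind exonic enhancers and mostly promote the use of nearby sites, whereas hnRNP proteins coat the nascent transcript and often repress them. Hepatocytes need this machinery to produce their large output of spliced plasma protein mRNAs.

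The tissue label was checked against marker genes. Of 10 hepatocyte markers 6 were listed, at 183 to 7619 CPM (read counts scaled to a common library total) per kilobase (kb) of mRNA, with Apoa1 the highest. Alb, Ttr, Cps1 and Hnf4a were not listed. Of 7 Kupffer cell marker symbols 5 were listed, at 5.15 to 74.8 CPM per kb. Adgre1 and Emr1 among these symbols name the same gene, which was listed as Emr1. Of 5 endothelial markers 4 were listed, at 8.52 to 76.9 CPM per kb. All 5 stellate cell markers were listed, at 1.67 to 15.7 CPM per kb. Ptprc, at 3.93 CPM per kb, was the listed one of 5 lymphocyte markers, and Alas2, at 19.1 CPM per kb, that of 3 erythroid markers. None of 4 cholangiocyte markers was listed. Nor was any of 6 neural splicing factors chosen as not typical of hepatocytes (Rbfox1, Rbfox3, Nova1, Elavl3, Elavl4 and Celf4). Outside that set, the neuronal splicing factor Ptbp2 was listed at 3.29 CPM per kb and the epithelial splicing factor Esrp2 at 17.5 CPM per kb, both named here after their values were seen. Since the table is ordered by p-value, a gene that is not listed may have any level, and the marker check rests on the listed genes alone. In whole liver, a level can reflect the number of cells that make an mRNA or the amount per cell, which cannot be told apart, and the part of other cell types in the levels below was not tested.

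The median level of the 60 mRNAs was 9.99 CPM per kb of mRNA, with quartiles of 5.11 and 19.5, against a median of 6.19 for the 7000 listed genes, with quartiles of 2.09 and 18.03. Of the 60, 39 (65%) lay above the median of the listed genes, 18 above their upper quartile and 5 below their lower quartile. In CPM, before division by length, the medians were closer, 19.98 for the members and 18.7 for the listed genes. Low levels made up a smaller share of the members, a difference that was not tested. Of the members 6 (10%) had a mean under 5 CPM, against 20.4% of the listed genes, while 23.3% of the members and 23.2% of the listed genes exceeded 20 CPM per kb. Together the 60 genes took 0.334% of the CPM of all listed genes. Level spanned 90.2-fold, from 0.614 CPM per kb for Rbm38 to 55.4 CPM per kb for Snrpd2.

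**Figure D1:**
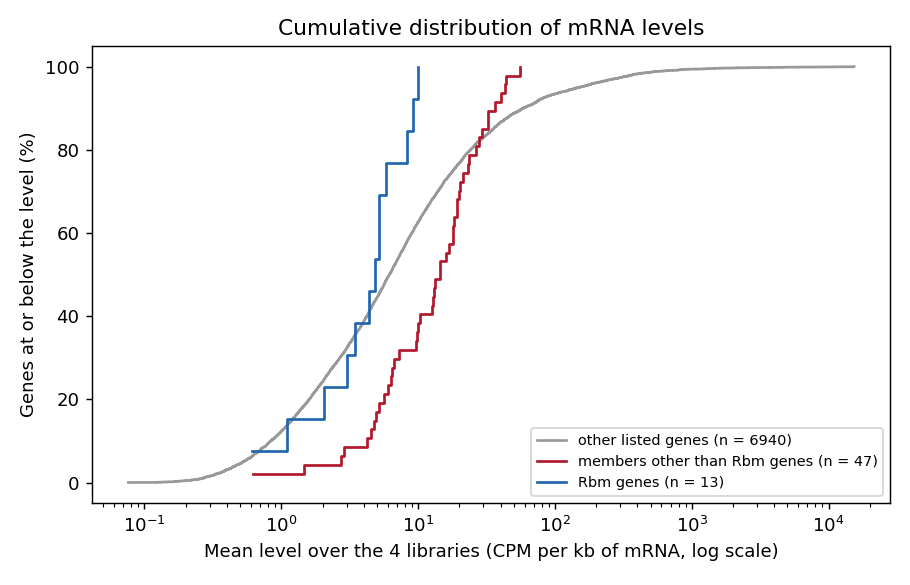
Cumulative share of genes (vertical axis, percent) at or below each mean level over the 4 libraries (horizontal axis, CPM per kb of mRNA, log scale) for the 47 members other than Rbm genes, the 13 Rbm genes and the 6940 other listed genes. The curve of the 47 lies to the right of the other listed genes over most of its range (medians of 14.4 and 6.16), and that of the Rbm genes to the left at its upper end (median of 4.88).

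The families differed in their medians. The Srsf genes had the highest median, 23.8 CPM per kb, followed by the Hnrnp genes at 21.1, the Snrp genes at 15.9, and the Sf3 and U2af genes also at 15.9. The Prpf genes had a median of 9.64, the Lsm genes of 8.53 and the Rbm genes of 4.88 CPM per kb. Of the Rbm genes 3 of 13 lay above the median of the listed genes, and without them the median of the other 47 members was 14.4 CPM per kb. mRNA length differed widely between families, from medians of 760 bases for Snrp and 921.5 for Lsm to 3283 for Rbm. Before division by length, the Srsf genes were still highest, with a median of 68.3 CPM, but the Lsm genes were lowest at 7.63 CPM and the Rbm genes stood at 15.7 CPM.

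**Figure D2:**
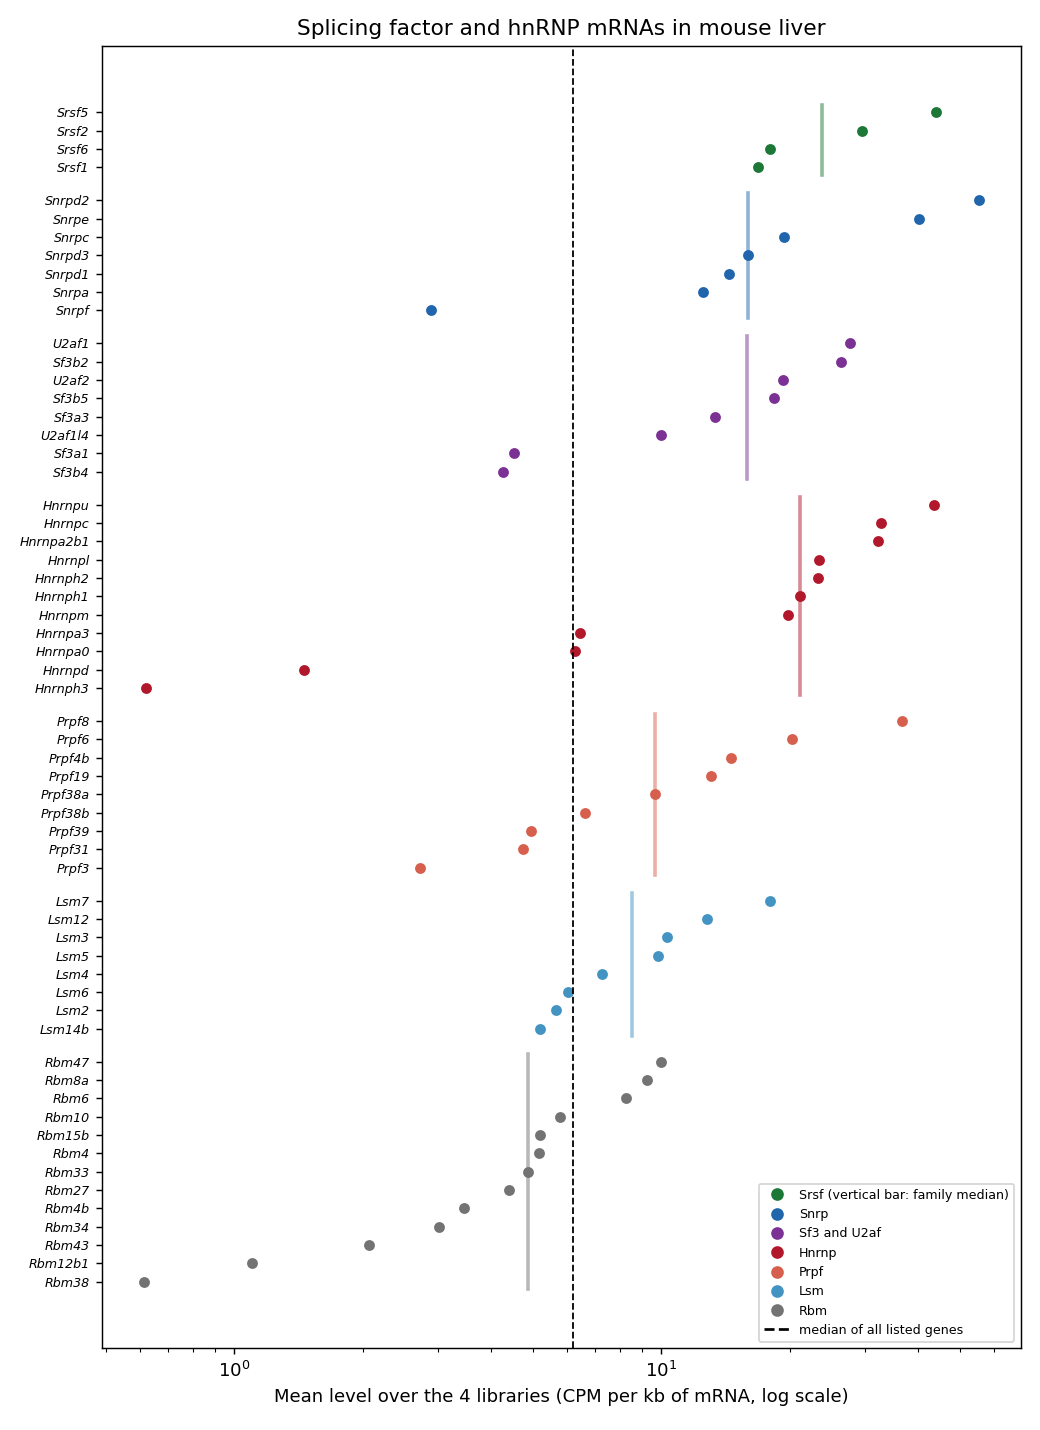
Mean level over the 4 libraries (horizontal axis, CPM per kb of mRNA, log scale) of each of the 60 genes (points), coloured by family, with the family median as a vertical bar and the median of all 7000 listed genes (6.19) as a dashed line. All 4 Srsf genes lie to the right of the dashed line, and 10 of the 13 Rbm genes to its left.

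All 4 listed SR protein mRNAs lay above the median of the listed genes per kb of mRNA, and 2 of them above the upper quartile. Srsf5 was at 44.0 CPM per kb, the second highest of all members. Srsf2, which also links transcription with splicing, was at 29.5 CPM per kb. Srsf6 was at 18.001 and Srsf1, the prototype SR protein, at 16.8 CPM per kb. The low place of Srsf1 within the family goes with its length. Its mRNA in the table has 5560 bases, of which the annotated transcript nearest in length has 4149 after the stop codon, and in CPM it was the highest of the 4, at 93.5. Per kb of its longest annotated coding sequence the level of Srsf1 was 123. Such values divide the CPM of the whole mRNA by coding length, so a long untranslated part raises them. Srsf5 was at 89.4 CPM per coding kb, Srsf2 at 67.8 and Srsf6 at 62.6. Srsf1 lies on chromosome 11 of NCBIM37 (the assembly also known as mm9), from 87860875 to 87867257, and Srsf5 on chromosome 12 from 82046491 to 82051494.

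The Sm proteins form the ring that holds the spliceosomal small nuclear RNAs, with 1 copy of each of 7 proteins, and 5 of their mRNAs were listed. Snrpd2 was at 55.4 CPM per kb and Snrpe at 40.2, ranks 1 and 4 of all members by this measure and 23 and 32 in CPM. Snrpd3 followed at 15.9 and Snrpd1 at 14.4. Snrpf was at 2.89 CPM per kb, 19.1-fold below Snrpd2, although both proteins sit in the same ring. Per coding kb Snrpf was again the lowest, at 9.01 against 75.7 for Snrpd2, an 8.40-fold difference. Snrpf also has few reads, with a mean of 2.35 CPM. Of the U1-specific proteins, Snrpc was at 19.4 and Snrpa at 12.5 CPM per kb. Before division by length their order was the reverse, at 14.7 CPM for Snrpc and 17.1 CPM for Snrpa. The mRNA length used for Snrpd2 was 488 bases, shorter than its nearest annotated transcript of 613 bases. Over the latter it would be at 44.1 CPM per kb, below Srsf5 at 46.4 by the same measure. Snrpd2 is a gene of 3 exons on chromosome 7 (NCBIM37, 19735071 to 19738084), and Snrpf has 4 exons on chromosome 10 (93045774 to 93052451).

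Both U2AF subunits lay above the upper quartile of the listed genes. U2af1, which contacts the AG at the end of the intron, was at 27.7 CPM per kb, and U2af2, which binds the polypyrimidine tract, at 19.3. The subunits of this heterodimer thus differed 1.43-fold per kb of mRNA and 1.17-fold per coding kb. This was the smallest ratio among the 6 groups of subunits examined by either of these measures. A ratio of highest to lowest tends to be smaller with fewer subunits, and U2AF has 2 listed. With no division by length the ratio was smaller for SF3a, 1.02 against 1.69 for U2AF. Before division by length their order was the reverse, at 25.1 CPM for U2af1 and 42.5 CPM for U2af2. U2af1l4, a paralog of U2af1 with 68.1% identical alignment columns between the coding sequences, was at 9.98 CPM per kb, 2.77-fold below it. In the U2 snRNP, Sf3b2 was at 26.3, Sf3b5 at 18.4 and Sf3b4 at 4.25 CPM per kb. Of the SF3a subunits, Sf3a3 was at 13.4 and Sf3a1 at 4.52 CPM per kb. In CPM, before division by length, these SF3a subunits were nearly equal, 22.7 and 22.2, since the mRNA of Sf3a1 (4916 bases) is longer than that of Sf3a3 (1697 bases).

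The Prpf genes ranged 13.4-fold. Prpf8, the scaffold of the catalytic core in the U5 snRNP, was at 36.6 CPM per kb and, with 7481 bases and 274 CPM, took more reads than any other member. Prpf6, which bridges U5 with U4/U6, was at 20.2 CPM per kb. The U4/U6 proteins Prpf31 and Prpf3 were at 4.74 and 2.73 CPM per kb, so that Prpf8 lay 13.4-fold above Prpf3. Per coding kb the same pair differed 10.8-fold. The kinase Prpf4b was at 14.5 CPM per kb, Prpf19, the ubiquitin ligase of the complex that activates the spliceosome, at 13.1, Prpf38a at 9.64, Prpf38b at 6.61 and Prpf39 at 4.94. The value of Prpf19 depends on its gene model. The table gives it an mRNA of 6218 bases, 2.86 times the single coding transcript of 2176 bases annotated on chromosome 19 (NCBIM37, 10969733 to 10980019), and over the annotated length it would be at 37.4 CPM per kb, level with Prpf8.

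The Lsm2 to Lsm8 proteins form the ring on the U6 RNA, and 6 of these 7 mRNAs were listed. Their levels ran from 5.66 CPM per kb for Lsm2 to 17.99 for Lsm7, a 3.18-fold range beside the 19.1-fold range of the Sm ring. Between them lay Lsm3 at 10.3, Lsm5 at 9.80, Lsm4 at 7.27 and Lsm6 at 6.04 CPM per kb. Lsm6 has a coding sequence of 243 bases in an mRNA of 3801 bases. Its CPM divided by coding length was the highest of the ring, at 94.5 CPM per coding kb, against 12.9 for Lsm2. Reads over the rest of the mRNA count towards this measure. By that measure the ring spanned 7.34-fold, close to the 8.40-fold of the Sm ring. With no division by length the ranges were 4.68-fold for the Lsm ring and 11.5-fold for the Sm ring. Over sequence not shared exactly with another gene (described below) the order was reversed, at 47.3-fold for the Lsm ring and 24.5-fold for the Sm ring. The 2 larger family members outside the ring, Lsm12 and Lsm14b, were at 12.8 and 5.20 CPM per kb. The table gives Lsm12 an mRNA of 1224 bases, shorter than the nearest annotated transcript of 2015 bases, over which it would be at 7.78 CPM per kb.

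**Figure D3:**
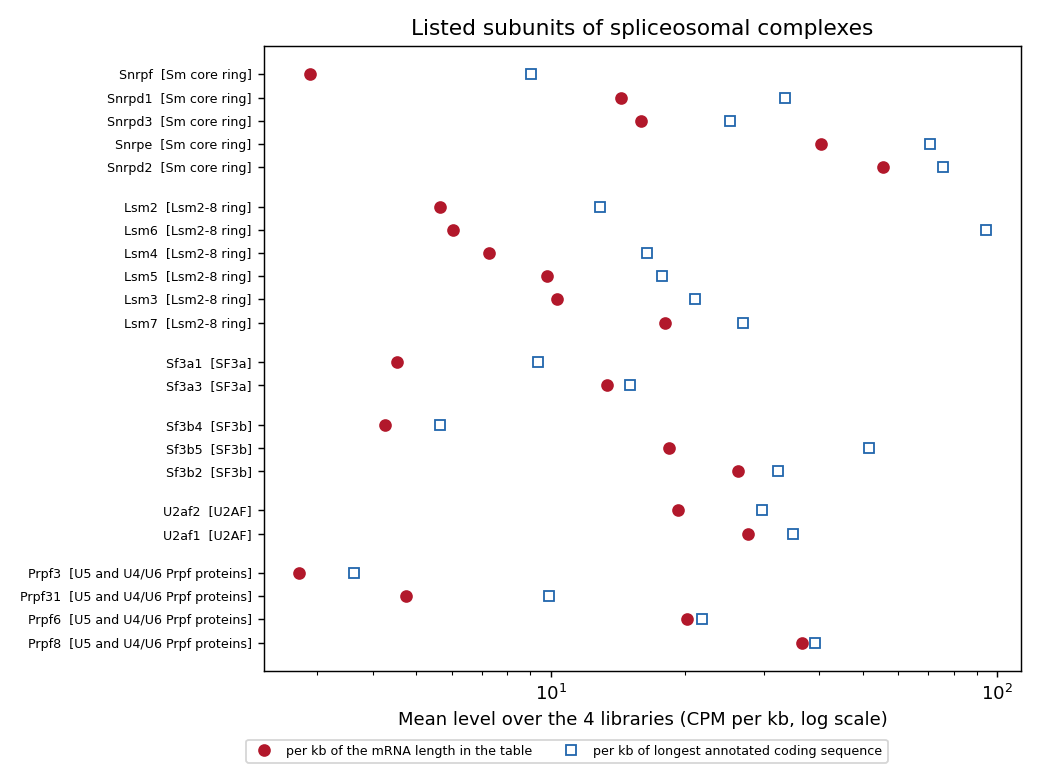
Mean level over the 4 libraries (horizontal axis, CPM per kb, log scale) of the listed subunits of 6 spliceosomal groups, per kb of the mRNA length in the table (filled circles) and per kb of the longest annotated coding sequence (open squares). Both measures divide the same CPM of the whole mRNA. Snrpf is lowest in the Sm ring and Prpf3 lowest in its group by both measures, while the order within the Lsm ring differs between them.

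Among the hnRNP genes, Hnrnpu, which binds RNA and the nuclear scaffold, was highest at 43.4 CPM per kb. Hnrnpc, a core protein that binds uridine tracts, was at 32.6, and Hnrnpa2b1 at 32.2 CPM per kb. Hnrnpl, a reader of CA-rich sequence, was at 23.3, Hnrnph2 also at 23.3, Hnrnph1 at 21.1 and Hnrnpm at 19.8 CPM per kb. These 7 genes all lay above the upper quartile of the listed genes. Hnrnpa3 was at 6.46 and Hnrnpa0, a gene of a single exon, at 6.28 CPM per kb. Hnrnpd, which binds AU-rich elements, was at 1.45 CPM per kb and Hnrnph3 at 0.622, both below the lower quartile of the listed genes. Hnrnpd is the other member whose table length (6810 bases) exceeds the nearest annotated transcript (4320 bases) by more than 1.5 times. Over the latter it would be at 2.29 CPM per kb, no longer below the lower quartile of the listed genes (2.09).

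Paralogs of the hnRNP families had similar levels in some pairs and far different ones in others. Hnrnph1, on chromosome 11 (NCBIM37, 50190492 to 50200030), and Hnrnph2, on the X chromosome (131135718 to 131141599), bind the same G-rich elements, have 81.3% identical columns in an alignment of their coding sequences, and differed by 1.11-fold in CPM per kb. Hnrnph3, on chromosome 10 (62477412 to 62486965), with 51.3% identical columns to Hnrnph1, was 33.9-fold below Hnrnph1 and rests on a mean of 1.35 CPM. Hnrnpa2b1 and Hnrnpa3 share 64.7% of columns and differed 4.99-fold, whereas Hnrnpa0 and Hnrnpa3, with 47.3%, differed 1.03-fold per kb of mRNA. The latter pair was further apart by other measures, at 18.3 and 29.6 CPM per coding kb and at 16.8 and 33.8 CPM before division by length.

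Counting of such paralogs rests on their distinct bases, because the authors kept reads of 50 bases that aligned to 1 mRNA alone with up to 2 mismatches. The stretches shown here are the longest that the coding sequences share exactly, with 10 bases on either side, and the shared run is in capitals. They come from the longest coding sequences of GENCODE vM1, with positions counted from the A of the start codon. Hnrnph1 and Hnrnph2 share a run of 34 bases, at coding positions 1037 to 1070 in both, and Hnrnph1 and Hnrnph3 a run of 36 bases, at positions 510 to 545 of Hnrnph1 and 225 to 260 of Hnrnph3.
Hnrnph1 beside Hnrnph2: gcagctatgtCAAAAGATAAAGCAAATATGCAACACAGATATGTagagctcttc
Hnrnph2: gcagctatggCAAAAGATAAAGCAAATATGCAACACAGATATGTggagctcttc
Hnrnph1 beside Hnrnph3: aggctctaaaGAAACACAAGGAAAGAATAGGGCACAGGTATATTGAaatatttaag
Hnrnph3: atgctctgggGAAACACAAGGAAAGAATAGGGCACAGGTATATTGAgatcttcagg

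Both runs are shorter than a read. No window of 50 bases in the mRNAs of these 3 genes occurred exactly in an annotated coding transcript of another gene. Windows with mismatches were not searched. However, the stretches of Hnrnph1 and Hnrnph2 printed as a pair differ by no more than the 2 mismatches that the authors allowed. A read of 50 bases within them would thus match both mRNAs. Over the 57 members with an annotated transcript, 48 had no exactly shared window. The other 9 were led by Lsm7, with 93.1% of its 419 windows found in Gm10146, then Sf3b4 with 57.4% in Gm7935, Snrpd2 with 33.0%, Hnrnpa3 with 25.3%, Rbm4b with 21.2% in Rbm14, and Snrpa with 14.1%. The main partners of Lsm7, Sf3b4, Snrpd2 and Snrpa are annotated as pseudogenes in RefSeq, and whether they were among the sequences used for alignment was not given in the sources used here. Over its unshared windows alone, the level would be 290 CPM per kb for Lsm7, 71.5 for Snrpd2 and 9.09 for Sf3b4. By this measure the Lsm ring would span 47.3-fold, from Lsm6 at 6.14 to Lsm7, and the Sm ring 24.5-fold. The Lsm ring would then have the wider range, the reverse of the order per kb of mRNA. The range of the Lsm ring, its order beside the Sm ring and the level of Lsm7 are therefore uncertain.

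The Rbm genes had the lowest family median per kb of mRNA, though not before division by length. Rbm47, a cofactor of the enzyme that edits Apob mRNA, was highest at 10.001 CPM per kb, followed by Rbm8a (Y14), a core protein of the exon junction complex, at 9.24, and Rbm6 at 8.25. The splicing regulator Rbm10 was at 5.80 and Rbm15b, an adaptor of the RNA methylation complex, at 5.21 CPM per kb. Rbm4 was at 5.16 and its paralog Rbm4b at 3.46. Rbm4 had no matched gene model, so the identity of this pair and the shared windows of Rbm4 were not computed. Rbm33, with the longest mRNA of all members (9501 bases), was at 4.88, Rbm27 at 4.40 and Rbm34 at 3.01 CPM per kb. Rbm43, Rbm12b1 and Rbm38 were at 2.07, 1.10 and 0.614 CPM per kb. Rbm38, which stabilizes Cdkn1a mRNA and is a target of p53, was the lowest of the 60 and had a mean of 1.09 CPM.

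The members had a median of 8 exons in the transcript nearest in length, from 1 exon in Hnrnpa0 and Sf3b5 to 42 exons in Prpf8, against a median of 9 for the 6721 listed genes with an annotated model. Median coding length was 1059 bases against 1434, and the median stretch after the stop codon was 616 bases against 954. GC content of the mRNA had a median of 48.0% against 50.2%. More than 1 coding isoform was annotated for 38 of 57 members (66.7%) and for 68.7% of the listed genes, with the most, 20, for U2af1l4. The length in the table lay within 10% of an annotated transcript for 51 of the 57 (89.5%), and for 88.7% of the listed genes.

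The promoters of the members were examined for letters of common motifs in the RefSeq windows of GRCm38.p6 from 250 bases before to 50 after each start site. The table holds 67 windows for 51 members, and none for Lsm12, Lsm4, Rbm12b1, Rbm27, Rbm8a, Sf3b4, Sf3b5, Snrpd1 and U2af2. Searching both strands, the CCAAT box (CCAAT) was found in 33 of 67 windows (49.3%), against 38.6% of the windows of all listed genes and 37.4% of all 32851 windows. The 95% Wilson interval of the members, 37.7% to 60.9%, includes the share of the listed genes. The ETS core (CCGGAA) was found in 25 of 67 windows (37.3%, interval 26.7% to 49.3%), against 26.3% and 14.9%. The SP1 box (GGGCGG) was found in 62.7%, against 61.2% and 35.7%, and the TATA box (TATAAA) in 8.96%, against 7.37% and 13.6%. The NRF1 palindrome was in 0 of the 67 (upper limit of the interval 5.42%) and in 2.22% of the windows of all listed genes. The median ratio of observed to expected CpG was 0.955 in the members, 0.749 in the listed genes and 0.384 in all windows. Some windows of the same gene overlap, a match of letters is no measure of binding, and the differences between sets were not tested. From 50 bases before to 50 after the start site, the SP1 box was found in 28.4% of the member windows (interval 19.0% to 40.1%) and 39.5% of those of the listed genes, and the interval of the ETS core in the members, 11.7% to 30.4%, included the 15.1% of the listed genes.

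**Figure D4:**
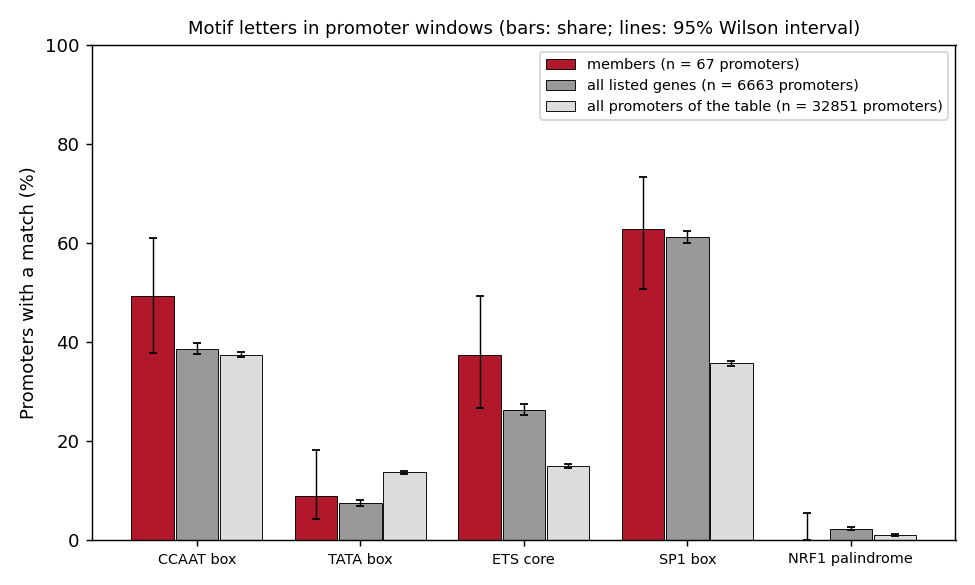
Share of promoter windows of 300 bases (vertical axis, percent) that hold the letters of each of 5 motifs on either strand, for the members (67 windows), all listed genes (6663) and all windows of the table (32851), with 95% Wilson intervals that cover counting error only. The member bars for the CCAAT box (49.3%) and the ETS core (37.3%) stand above those of the listed genes (38.6% and 26.3%), and the interval for the CCAAT box includes the share of the listed genes.

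Windows are shown for the highest member per kb of mRNA, for the lowest, and for the members with many CCAAT or ETS letters that illustrate these shares. Each is the 250 bases before the start site on GRCm38.p6, in the direction of the gene, with motif letters in capitals. Snrpd2 (chr7:19149588-19149837, plus strand, 55.4 CPM per kb) has 1 SP1 box on the reverse strand. Hnrnpc (chr14:52104022-52104271, minus strand, 32.6 CPM per kb) has 4 CCAAT boxes, 1 of them reversed. Prpf6 (chr2:181601069-181601318, plus strand, 20.2 CPM per kb) has 3 ETS cores and 2 SP1 boxes. Rbm38 (chr2:173021652-173021901, plus strand, 0.614 CPM per kb) has 0 matches to the 5 motifs.
Snrpd2: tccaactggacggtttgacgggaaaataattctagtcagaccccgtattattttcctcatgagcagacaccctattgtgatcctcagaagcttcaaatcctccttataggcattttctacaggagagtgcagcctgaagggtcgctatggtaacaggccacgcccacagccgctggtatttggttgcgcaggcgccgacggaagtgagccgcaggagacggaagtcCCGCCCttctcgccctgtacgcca
Hnrnpc: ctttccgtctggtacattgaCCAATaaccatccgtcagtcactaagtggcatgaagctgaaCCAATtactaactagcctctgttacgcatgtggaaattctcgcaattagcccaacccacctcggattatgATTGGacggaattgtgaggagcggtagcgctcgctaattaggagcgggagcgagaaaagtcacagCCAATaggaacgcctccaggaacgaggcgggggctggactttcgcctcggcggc
Prpf6: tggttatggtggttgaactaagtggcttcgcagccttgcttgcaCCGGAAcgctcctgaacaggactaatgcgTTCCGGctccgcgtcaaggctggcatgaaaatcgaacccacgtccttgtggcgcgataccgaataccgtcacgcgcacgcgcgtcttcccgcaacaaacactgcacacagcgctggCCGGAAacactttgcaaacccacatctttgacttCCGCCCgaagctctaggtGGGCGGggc
Rbm38: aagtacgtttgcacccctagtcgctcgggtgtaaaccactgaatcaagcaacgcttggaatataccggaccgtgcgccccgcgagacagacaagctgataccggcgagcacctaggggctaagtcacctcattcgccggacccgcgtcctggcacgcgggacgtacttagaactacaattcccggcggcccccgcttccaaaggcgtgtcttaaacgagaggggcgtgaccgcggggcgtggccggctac

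Of a list of 99 splicing genes outside the naming rule, 52 were listed, with a median of 9.65 CPM per kb against 9.99 for the members. Before division by length their median was 29.2 CPM against 19.98 for the members. Of the 52, 39 (75%) lay above the median of all listed genes per kb, against 65% of the members, and the difference was not tested. The 3 highest were Cwc15 at 45.6, Nono at 44.2 and Magoh, the partner of Rbm8a in the exon junction complex, at 34.3 CPM per kb. The 2 lowest were Snrnp25 at 2.56 and Casc3 at 1.83 CPM per kb. Per kb of mRNA Magoh was thus above Rbm8a, but before division by length the order was the reverse, at 20.9 CPM for Magoh and 24.2 CPM for Rbm8a.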

How the data were processed

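Liver RNA of 4 mice (2 per diet) was depleted of rRNA, made into stranded libraries and read as 50-base single-end reads. Per the labels and the methods of the study, alignment by the authors was with Bowtie against RefSeq mRNAs of mm9 (1 entry per gene, the longest isoform), keeping unique alignments with up to 2 mismatches, and edgeR was run on genes above 1 CPM in at least 3 samples; the sources used here give no versions. The deposited table gives for each gene an mRNA length in bases and a log2 mean CPM over the 4 libraries, made by the authors with edgeR. It also holds 3 columns of their diet comparison (fold change, p-value and FDR), which were not used, and 0 columns for single mice. No test between diets, error between mice or depth per library could therefore be computed.

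Levels are 2 to the power of the log2 mean CPM, divided by the mRNA length in kb. Gene models come from GENCODE vM1 (NCBIM37), in which 57 of the 60 members matched 1 coding gene by symbol (not Rbm12b1, Rbm15b or Rbm4), and promoters from RefSeq. Coding length is that of the longest annotated coding sequence. Levels per coding kb divide the CPM of the whole mRNA by it and are not counts over coding bases alone. The reading direction of the promoter windows was checked against annotated mRNAs (55 of 67 matched in sense, 0 in antisense). The steps were tested on simulated data. Members and gene lists were chosen with earlier results of these data known. Genes described in full were the 3 highest and the lowest of each family, the 10 highest and 5 lowest of all, paralog pairs, members with a set role, and the 3 highest and 3 lowest other splicing genes, of which 1 is not reported here. The promoters and shared stretches printed, and the paralog pairs beyond those set, were chosen after the values were seen. Planned protein features were not computed. Alternatives were other lengths, a minimum of 2 CPM, omission of the Rbm genes and a shorter promoter window. Scripts ran in Python 3.11.15 with pandas 2.3.3 and numpy 2.4.6; intervals came from scipy 1.17.1, and plots from matplotlib 3.10.9.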

Additional observations from a re-analysis of the deposited data

How the results depend on the processing

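The levels depend on the length by which reads are divided. The median of the members, 9.99 CPM per kb, was 19.98 CPM with no division by length, 10.7 with 49 bases subtracted from each length, 21.9 per coding kb, 14.4 without the Rbm genes and 10.2 with a minimum of 2 CPM. Alternatives added after the data were seen gave 9.84 with the nearest annotated mRNA length and 10.9 over windows not shared with another gene. The corresponding medians of all listed genes were 6.19, 18.7, 6.33, 12.2 per coding kb and 7.08 with a minimum of 2 CPM, so that members and listed genes were close when length was not divided out. The count of members above the median of the listed genes was 39 of 60. It was 32 of 60 with no division by length and 36 of 60 against listed genes with a minimum of 2 CPM. Per coding kb, added after the data were seen, it was 41 of 57.

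Family medians with no division by length were 68.3 CPM for Srsf, 14.7 for Snrp, 22.5 for Sf3 and U2af, 49.99 for Hnrnp, 20.1 for Prpf, 7.63 for Lsm and 15.7 for Rbm. With 49 bases subtracted they were 24.3, 17.4, 16.7, 21.6, 9.96, 9.27 and 4.90 CPM per kb in the same order. Per coding kb, added after the data were seen, they were 78.6, 30.6, 22.4, 29.6, 15.6, 19.4 and 8.22. A minimum of 2 CPM moved Hnrnp to 22.2 and Rbm to 5.02. Srsf was the highest family under each of these, and Rbm the lowest except with no division by length.

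In the 100 bases around the start site, motif shares of the members were 19.4% for the CCAAT box (14.5% in all listed genes), 19.4% for the ETS core (15.1%), 28.4% for the SP1 box (39.5%), 2.99% for the TATA box (2.69%) and 0% for the NRF1 palindrome (1.17%). The SP1 share of the members was thus the lower one there, and the higher one, 62.7% against 61.2%, in the 300 bases. No paired analysis was possible because the values used have no column for single mice and the mice of the 2 diets share no number; leaving out each mouse was not possible for the same reason. Planned protein features of the members were not computed, since they need protein sequences not used here. Without depth per library, the counting error of low levels such as Rbm38, Hnrnph3 and Snrpf is unknown.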

Other observations

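Several members start close to a neighbouring gene. In the gene models of GENCODE vM1 (NCBIM37), 12 of 57 members (21.1%) had the start of another coding gene within 1000 bases on the opposite strand, pointing away, against 704 of 6721 listed genes (10.5%); the difference was not tested. The pairs with the shortest distances were Hnrnph2 with Gla (54 bases), Prpf31 with Tfpt (56 bases), Sf3a1 with Ccdc157 (57 bases) and Lsm7 with 3110056O03Rik (66 bases). For 3 of the 12 the partner was listed too, and the levels within a pair were far apart in 2 of them. Hnrnph2 was at 23.3 and Gla, which encodes the lysosomal alpha-galactosidase, at 2.47 CPM per kb. Hnrnph3 was at 0.622 and Pbld2, 98 bases away, at 62.2 CPM per kb. Sf3a1 and Ccdc157 were at 4.52 and 2.70 CPM per kb.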
